A study of Mus musculus with 160 samples.

Results

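The 9 genes described here encode secreted signals that connective tissue cells of the colon are known to send to the crypt epithelium. Which cells their transcripts came from was not measured in these bulk samples. They are the Wnt ligands *Wnt2b*, *Wnt4* and *Wnt5a*, the R-spondins *Rspo1*, *Rspo2* and *Rspo3*, the secreted Wnt antagonist *Sfrp1*, the bone morphogenetic protein *Bmp4* and the BMP antagonist *Grem1*. They were taken by name from the 39179 genes counted in RNA sequencing of mouse distal colon, and all 9 were found. Colon crypts are renewed by stem cells at the crypt base, where Wnt ligands bind Frizzled receptors and their LRP coreceptors, and R-spondins bind LGR receptors and so keep Frizzled receptors on the cell surface. BMP signals act in the opposite direction towards the crypt mouth and promote differentiation, and fibroblasts and smooth muscle cells around the crypt base secrete BMP antagonists such as gremlin 1. Fibroblasts beneath the epithelium are a known source of most of these factors in the intestine.

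The samples came from 4 knockout mouse lines, each with homozygous knockout animals (HO) and wild-type animals (WT), used to ask how loss of a predicted regulator of intestinal inflammation alters colitis caused by dextran sulfate sodium (DSS), a polymer in the drinking water that injures the colon epithelium. The HEM1 line, in which *Nckap1l* was targeted, had 15 WT samples (8 female, 7 male) and 16 HO samples (4 female, 12 male) on C57BL6/J, collected on day 12, and its labels name no DSS concentration. The DOCK2 line had 24 WT samples (12 female, 12 male) and 18 HO samples (8 female, 10 male) on C57BL6/J, with 3% DSS and collection on day 10. The GPSM3 line had 20 WT and 20 HO samples, all labelled male, on C57BL6/J, with 3% DSS and collection on day 10. The Dok3 line had 21 WT and 26 HO samples, all labelled male, on strain 129, with 3.5% DSS and collection on day 10. DSS was given for 5 days and followed by plain water, but which animals drank it is not given per sample in the sources used here, so each genotype may hold treated and untreated animals. DOCK2 and GPSM3 share strain, DSS concentration and collection day. For *Nckap1l* knockout mice the authors describe a DSS concentration slightly below the 3% of most other experiments. For HEM1 (day 12, lower DSS concentration) and Dok3 (strain 129, 3.5% DSS) these features cannot be told apart from the line. The authors also describe a first round of Dok3 experiments at 3% DSS.

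Each library held 4344988 to 19993833 counts on genes, so that 3 counts equalled 0.15 to 0.69 CPM (counts scaled to a common library total). The tissue label was matched by its markers: the mean log2 CPM of 8 epithelial markers had line medians of 9.84 to 10.3, that of 8 smooth muscle markers 9.06 to 9.36 and that of 8 fibroblast markers 7.58 to 8.15. Markers of skin (*Krt5*, *Krt14*, *Krt10*, *Krt1*, *Krt15*, *Dsg3*, *Trp63*, *Lor*) exceeded 10 times their line median in 32 libraries, of which 15 were HEM1, 5 DOCK2, 3 GPSM3 and 9 Dok3, and values that moved strongly without these libraries are given with and without them. The targeted gene was lower in HO than in WT at a significant level only in the GPSM3 line, where *Gpsm3* differed by -2.06 ± 0.28 (log2 ± SE, edgeR adjusted p = 0.0001005). The differences were -1.09 ± 0.41 for *Nckap1l*, -0.62 ± 0.17 for *Dock2* and -0.48 ± 0.39 for *Dok3* (edgeR adjusted p = 0.9996, 0.21 and 0.9996), the ranges of HO and WT samples overlapped in every line, and transcripts of the targeted gene were still counted in HO samples. Sex-specific transcripts went against the label in 5 libraries, all of the Dok3 line.

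In the mm10 mouse genome (GRCm38), *Grem1* lies on the minus strand at chr2:113746164-113758646 and *Sfrp1* on the plus strand at chr8:23411502-23449632. *Wnt4* is at chr4:137277489-137299726 and *Rspo1* at chr4:124986430-125009099, both on the plus strand. *Wnt5a* is at chr14:28504750-28527448 on the plus strand and *Bmp4* at chr14:46383520-46390669 on the minus strand. *Wnt2b* (chr3:104945272-104961921), *Rspo2* (chr15:43020794-43170826) and *Rspo3* (chr10:29452416-29535867) are on the minus strand. Counts were summed over the exons of each gene. An antisense gene, *Gm2670*, shares 358 exonic bases with *Wnt5a* (4.6% of its exon length), and *Gm15217* shares 89 with *Bmp4* (4.0%). The overlap was larger for *Rspo3*, which shares 404 exonic bases (13.1%) with the antisense gene *Gm48159*, for which no counts were analysed here. Because the strand setting of the counting is not given in the sources used here, reads from these stretches could belong to either partner.

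Promoters of 5 of the 9 genes (*Wnt2b*, *Wnt4*, *Rspo1*, *Grem1*, *Bmp4*) were in the RefSeq table used here, on build GRCm38.p6, each running from 250 bases before the transcription start to 50 bases after it. With all libraries, levels of *Grem1* and *Wnt4* rose with inflammation genes in all 4 lines, while the slope of *Bmp4* did not pass the test in any of them. The rise of *Wnt4* in HEM1 was not called without skin-marker libraries. The sequences of these 3 genes are shown 5′ to 3′ on the strand of the gene. Matches to the GC box (GGGCGG, either strand) and the CCAAT box (CCAAT, either strand) are in capitals.
Grem1: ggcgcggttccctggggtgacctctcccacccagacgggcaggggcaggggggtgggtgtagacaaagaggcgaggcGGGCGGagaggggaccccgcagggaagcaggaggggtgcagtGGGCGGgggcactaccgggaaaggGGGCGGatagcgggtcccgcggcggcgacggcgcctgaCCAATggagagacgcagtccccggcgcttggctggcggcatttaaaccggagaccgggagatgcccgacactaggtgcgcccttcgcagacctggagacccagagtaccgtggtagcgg
Wnt4: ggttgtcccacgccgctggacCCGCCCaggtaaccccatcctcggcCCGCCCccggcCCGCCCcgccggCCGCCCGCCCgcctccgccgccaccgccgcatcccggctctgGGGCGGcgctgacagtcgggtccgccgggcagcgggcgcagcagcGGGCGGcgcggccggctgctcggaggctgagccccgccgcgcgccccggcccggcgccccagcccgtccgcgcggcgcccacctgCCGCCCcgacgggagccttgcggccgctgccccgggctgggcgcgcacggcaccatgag
Bmp4: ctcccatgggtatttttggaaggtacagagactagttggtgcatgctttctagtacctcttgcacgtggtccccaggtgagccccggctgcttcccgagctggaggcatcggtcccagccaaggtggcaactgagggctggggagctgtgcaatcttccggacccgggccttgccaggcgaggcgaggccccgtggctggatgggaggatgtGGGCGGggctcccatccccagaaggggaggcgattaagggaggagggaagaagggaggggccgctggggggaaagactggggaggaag
The *Grem1* sequence is chr2:113758599-113758898 (minus strand), the *Wnt4* sequence chr4:137277385-137277684 (plus strand) and the *Bmp4* sequence chr14:46390620-46390919 (minus strand). The GC box, which 35.2% of the 27025 promoters in the table hold, matched 8 times in *Wnt4*, 4 times in *Wnt2b*, 3 times in *Grem1* and once in *Bmp4*, with none in *Rspo1*, and neighbouring matches overlap in *Wnt4* and *Wnt2b*. The CCAAT box, held by 37.7% of promoters, matched once in *Grem1*, 69 to 65 bases before the start, and once in *Wnt2b*. No match to AP-1 (TGANTCA, 7.89% of promoters), TCF/LEF (CTTTGNT, 18.7%) or a SMAD box (CAGACA, 21.2%) lay in any of the 5 windows on either strand. The 5 promoters were GC-rich, from 64% in *Bmp4* to 84.3% in *Wnt4*, against a median of 52.7% over all promoters. The search for GC and CCAAT boxes was added after the first 3 motifs had given no match.

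*Grem1*, a secreted protein that binds and blocks BMP2 and BMP4, was the most abundant of the 9 per length, and *Rspo2* the least. On the scale of CPM per kilobase of exon, the median level over the 160 samples was 34.2 for *Grem1*, 12.8 for *Sfrp1*, 10.8 for *Bmp4*, 5.93 for *Wnt2b*, 3.55 for *Rspo3*, 3.05 for *Wnt5a*, 2.44 for *Wnt4*, 0.424 for *Rspo1* and 0.0869 for *Rspo2*. Within genes, CPM without the length correction is used from here on. *Grem1* also had the widest range of the abundant genes, from 19.3 to 1274 CPM around a median of 141.7, and *Sfrp1* ranged from 26.2 to 413.6 around 56.1. By contrast *Wnt2b* stayed between 12.3 and 40.0 CPM (median 24.9) and *Bmp4* between 10.5 and 47.3 (median 24.4).

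The remaining ligands lay between these extremes. *Wnt5a*, a ligand best known for non-canonical signalling, ranged from 10.7 to 74.8 CPM with a median of 23.8, *Wnt4* from 4.21 to 80.4 with a median of 10.2, and *Rspo3*, a main R-spondin of the adult colon stroma, from 3.00 to 40.8 with a median of 11.0. *Rspo1* had a median of 0.822 CPM and a highest value of 7.18, with no count in 2 samples and under 10 counts in 60 of 160. *Rspo2* had a median of 0.444 CPM and a highest value of 4.03, with no count in 3 samples and under 10 counts in 116, so its differences could hardly be detected at this depth.

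Across the 8 groups of line and genotype the ranges overlapped for every gene. For *Grem1* the lowest, median and highest CPM were 61.7, 165.1 and 1274 in HEM1 WT, and 34.7, 149 and 616.2 in HEM1 HO. They were 71.2, 152.9 and 375.4 in DOCK2 WT and 63.6, 138.2 and 244.2 in DOCK2 HO. In the GPSM3 line they were 66.8, 120.8 and 737.9 in WT and 51.5, 139.7 and 814.1 in HO. Dok3 samples had 54.3, 137.2 and 927 in WT and 19.3, 124.5 and 1018 in HO. Thus the group medians of *Grem1* lay close together, while the highest sample of a group stood well above its median in all 8. Group medians ran from 39.9 (GPSM3 WT) to 69.1 CPM (Dok3 WT) for *Sfrp1*, from 20.4 (HEM1 WT) to 28.8 (DOCK2 HO) for *Wnt2b*, from 7.41 (GPSM3 HO) to 16.7 (HEM1 WT) for *Wnt4* and from 20.3 (GPSM3 WT) to 27.0 (HEM1 HO) for *Wnt5a*. They ran from 10.2 (Dok3 HO) to 13.2 (HEM1 WT) for *Rspo3*, from 0.519 (Dok3 WT) to 1.95 (HEM1 HO) for *Rspo1*, from 0.379 (HEM1 HO) to 0.557 (HEM1 WT) for *Rspo2* and from 21.95 (HEM1 WT) to 26.3 (DOCK2 WT) for *Bmp4*. When the 8 groups were ordered by their mean log2 level, 0 of the 7 steps between neighbours exceeded the pooled SD for any of the 9 genes.

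**Figure D1:**
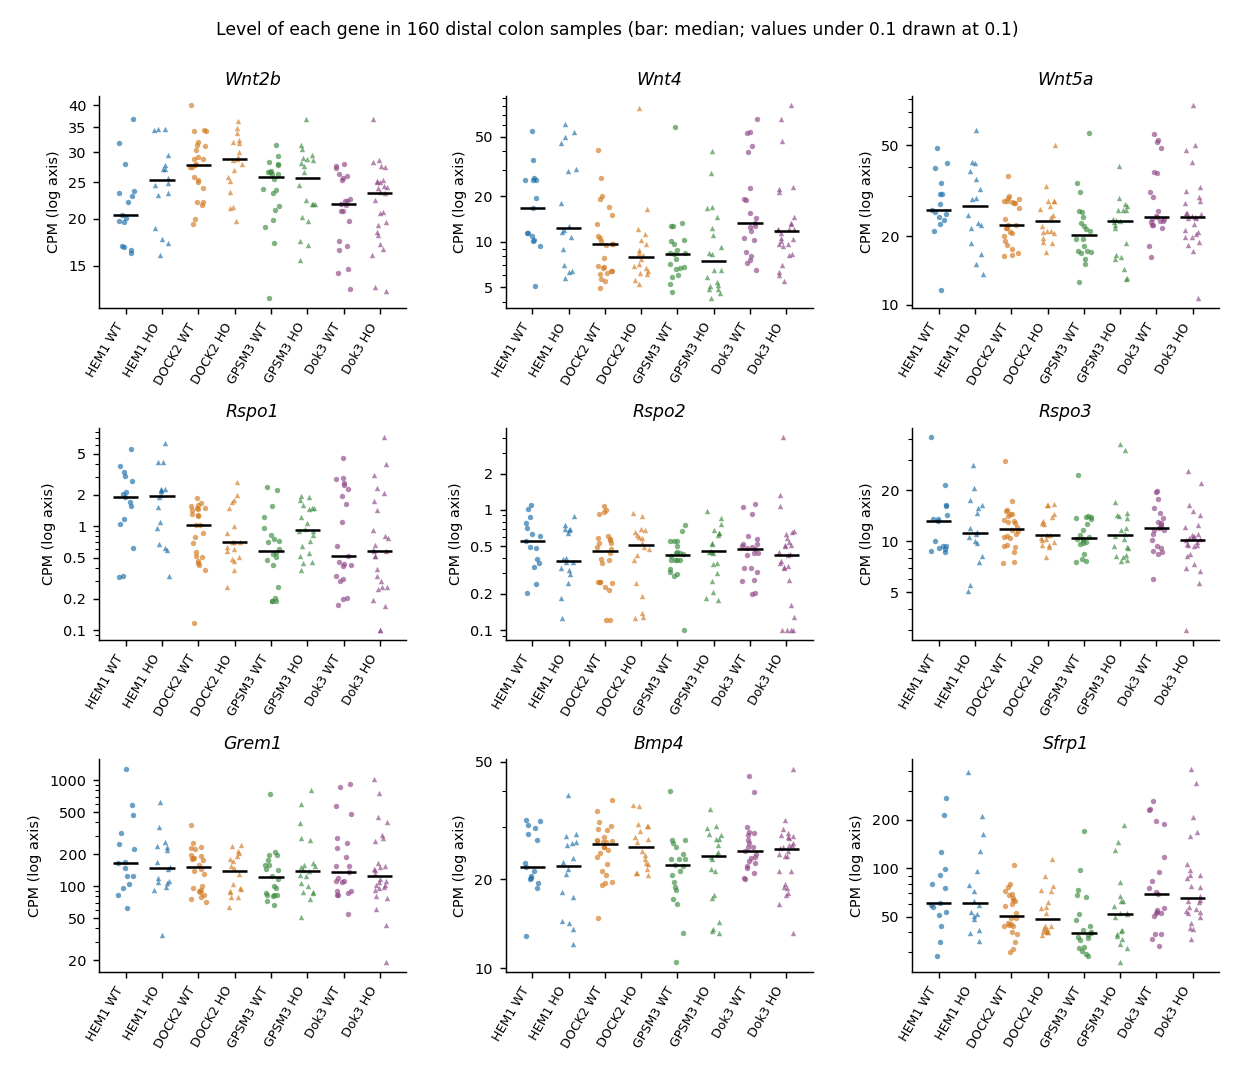
Level of each of the 9 genes (CPM, log axis) in the 8 groups of line and genotype. Points are samples, circles WT and triangles HO, bars are group medians, and the samples of all groups overlap, with *Grem1* between 19.3 and 1274 CPM.

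Whether loss of the targeted gene changed these signals was tested in each line. None of the 8 genes that could be tested differed between HO and WT in any line. Of all genes tested, 0% were called in the HEM1 line, 0.0340% in DOCK2, 0.00569% in GPSM3 and 0% in Dok3 (edgeR adjusted p under 0.05), with 0, 6, 1 and 0 genes. At an unadjusted p under 0.05 edgeR gave 807, 900, 854 and 386 genes. DESeq2 called 39, 152, 8 and 6 after adjustment and limma-voom 0, 0, 1 and 0. Of the 32 tests on the 9 genes, 0 had an unadjusted p under 0.05 (*Rspo2* did not pass the filter on low counts in any of these fits). The difference that came nearest was *Rspo1* in the GPSM3 line, at 0.53 ± 0.28 (HO minus WT, log2 ± SE, 95% interval -0.025 to 1.09, edgeR adjusted p = 0.936). For *Grem1* the differences were -0.56 ± 0.40, -0.16 ± 0.19, 0.42 ± 0.31 and -0.22 ± 0.37 in HEM1, DOCK2, GPSM3 and Dok3, with 95% intervals of -1.38 to 0.26, -0.54 to 0.23, -0.21 to 1.05 and -0.95 to 0.51. The 95% intervals of *Wnt2b* and *Bmp4* lay within -0.40 to 0.49 in all lines. The HEM1 values depended on the libraries used. Most HEM1 skin-marker libraries came from the same run of consecutive sample numbers in the labels, so leaving them out also removed most of that run. Without the skin-marker libraries, which leaves 7 WT and 9 HO samples of HEM1, the difference was -1.62 for *Grem1*, beyond the interval above, -0.95 for *Sfrp1* (0.20 with all libraries) and -0.79 for *Rspo3* (-0.22 with all), none called (edgeR adjusted p = 0.36, 0.38 and 0.36). In that fit *Wnt4* and *Rspo1* also changed sign, from 0.44 to -0.16 and from 0.26 to -0.33. Among HEM1 males *Grem1* had -1.06 and *Sfrp1* -0.27 (edgeR adjusted p = 0.991 for both), and in Dok3 without skin-marker libraries *Grem1* had -0.49. No knockout effect on *Grem1* was therefore detected, but its size in HEM1 was poorly determined. The difference in genotype effect between lines was called for 0.690% of all genes and for 0 of the 9 (lowest edgeR adjusted p = 0.9996, 0 at an unadjusted p under 0.05), and limma-voom called 1 gene in all.

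The level of inflammation varied widely within every group, and it was measured by a score, the mean log2 CPM of 9 genes of neutrophils, inflammatory monocytes and injured epithelium (*S100a8*, *S100a9*, *Il1b*, *Cxcl2*, *Cxcr2*, *Csf3r*, *Trem1*, *Clec4d*, *Lcn2*). The score ran from -0.910 to 7.47 in HEM1, from -1.27 to 7.55 in DOCK2, from -1.37 to 6.69 in GPSM3 and from -1.80 to 9.15 in Dok3. It was continuous, with no gap wider than 15.8% of its range in any line. The slope of each gene on the score showed which of the Wnt, R-spondin and BMP signals moved together with inflammation. It is the log2 change per 1 unit, with genotype and, in HEM1 and DOCK2, sex in the model.

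In fits of all libraries without marker covariates, the same 6 genes, *Grem1*, *Sfrp1*, *Rspo1*, *Wnt4*, *Rspo3* and *Wnt5a*, rose with the score in each of the 4 lines. These are 6 of the 8 genes that could be tested, whereas 23.7%, 28.4%, 28.4% and 33.3% of all genes rose and 25%, 26.8%, 26.1% and 30.5% fell in HEM1, DOCK2, GPSM3 and Dok3 (edgeR adjusted p under 0.05). The median slope of the 8 genes was 0.18, 0.15, 0.14 and 0.21 in the same order, against medians of 0.0010, -0.00021, 0.00055 and 0.0015 over all genes. Beside this, 7 of 8 fibroblast markers rose in HEM1, 6 of 8 in DOCK2, 7 of 8 in GPSM3 and 8 of 8 in Dok3, so that more fibroblasts in the sample and more transcript per fibroblast cannot be told apart in these bulk samples. When fibroblast markers were put in the model, only *Grem1* and *Sfrp1* were called in each line, as given below.

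*Grem1* had the steepest slope of the 8 genes in 3 of the 4 lines. In the sample with the lowest score of each line it stood at 95.5 CPM in HEM1, 78.8 in DOCK2, 51.5 in GPSM3 and 19.3 in Dok3, and in the sample with the highest score at 1274, 375.4, 814.1 and 1018 CPM. The highest-score sample was thus also the one with the most *Grem1* in each line. The lowest-score samples of GPSM3 (HO replicate 2) and Dok3 (HO replicate 11) also had their line's lowest mean log2 CPM of fibroblast markers. These means were 6.84 and 6.43, against line medians of 7.58 and 7.84. The Dok3 sample was lowest in smooth muscle markers too (6.605, line median 9.06). The same samples give the low-score values of the other genes below. The part of these markers in the values was not tested. The slopes were 0.34 ± 0.043 in HEM1, 0.29 ± 0.020 in DOCK2, 0.34 ± 0.029 in GPSM3 and 0.38 ± 0.019 in Dok3 (log2 ± SE, edgeR adjusted p = 1.34e-07, 3.46e-15, 1.36e-12 and 1.53e-22), which is 1.27-, 1.22-, 1.26- and 1.31-fold per unit. Among all genes tested, their size lay at percentiles of 96.7 to 97.8. Over all 160 samples, with each line's mean removed, log2 *Grem1* followed the score with Pearson r = 0.878 and Spearman rho = 0.859 (permutation p within lines = 1e-05 for both, the smallest that 100000 permutations give, and 0.865 for r without the 2 samples farthest from the median score), and r was at least 0.784 in every line. Within the 8 runs of consecutive sample numbers in the labels, the slope of *Grem1* was between 0.277 and 0.483.

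*Sfrp1*, which binds Wnt ligands outside the cell, followed closely. It was 43.5, 40.6, 26.2 and 42.1 CPM in the lowest-score samples of HEM1, DOCK2, GPSM3 and Dok3, and 272.7, 60.03, 186.1 and 337.2 CPM in the highest-score samples. Its increase was small in the DOCK2 sample and large in the others. The slopes were 0.33 ± 0.029, 0.20 ± 0.021, 0.26 ± 0.023 and 0.28 ± 0.021 (edgeR adjusted p = 3.33e-10, 4.41e-10, 3.06e-12 and 5.56e-16), with r = 0.839 and rho = 0.772 over all samples (permutation p = 1e-05 for both) and slopes of 0.169 to 0.409 within the runs of sample numbers.

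**Figure D2:**
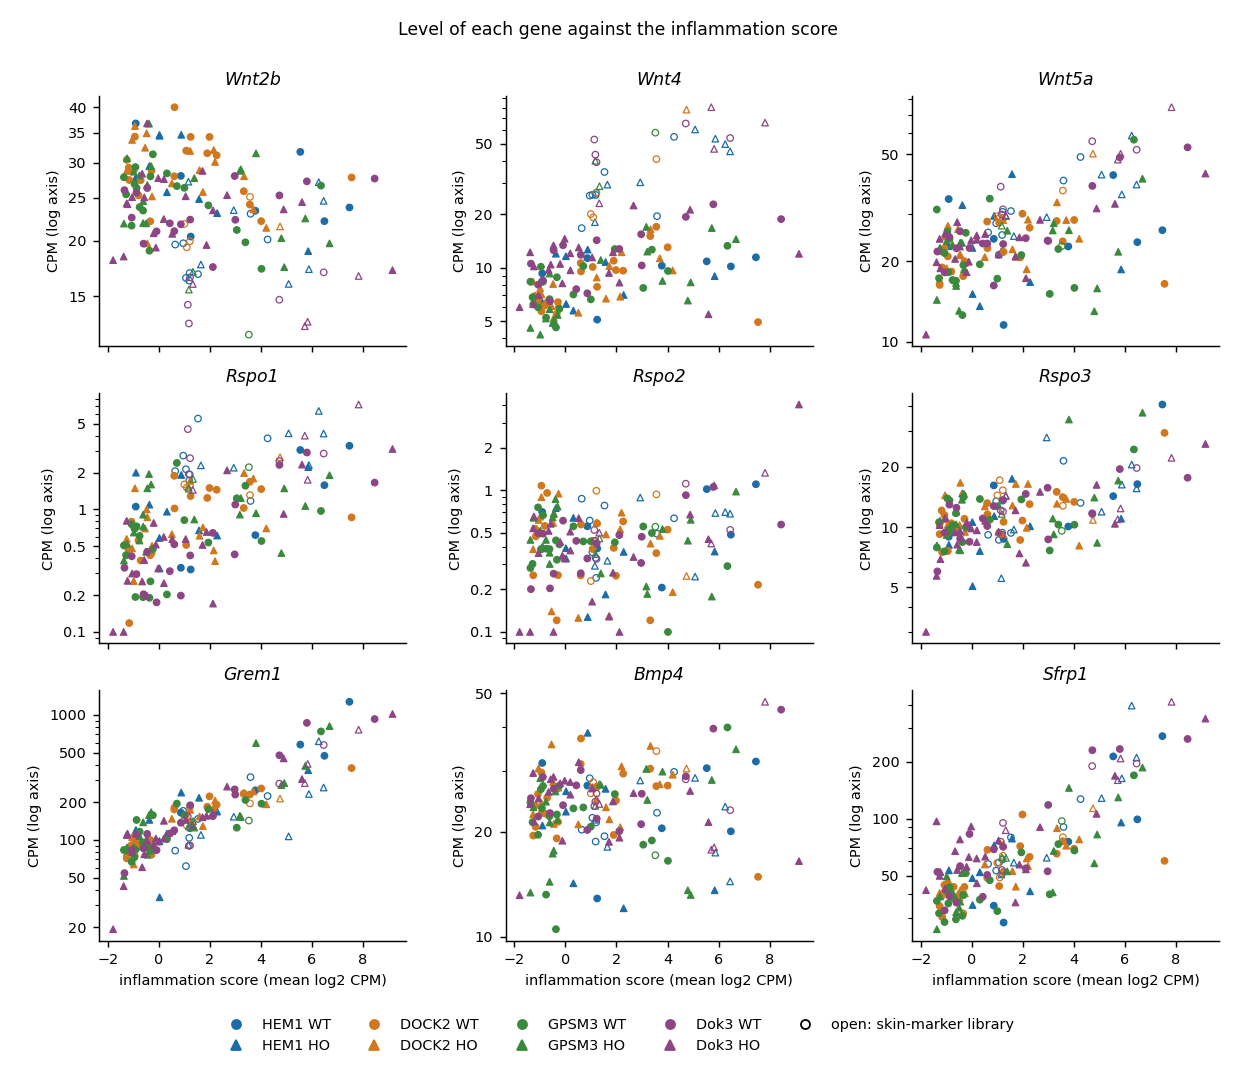
Level of each gene (CPM, log axis, values under 0.1 drawn at 0.1) against the inflammation score (mean log2 CPM of 9 genes) in 160 samples. Colours are lines, circles WT and triangles HO, and open symbols are the 32 libraries with skin markers. *Grem1* and *Sfrp1* rise along the whole score (r = 0.878 and 0.839), and *Bmp4* stays level (r = 0.102).

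Of the R-spondins, *Rspo3* rose by 0.16 ± 0.036 per unit in HEM1, 0.071 ± 0.023 in DOCK2, 0.13 ± 0.030 in GPSM3 and 0.13 ± 0.018 in Dok3 (edgeR adjusted p = 0.000511, 0.00892, 0.00023 and 2.67e-08). The highest-score samples stood at 40.8, 29.5, 37.2 and 25.97 CPM and the lowest-score samples at 8.95, 10.5, 8.09 and 3.00 CPM, without overlap between the sets. In the DOCK2 line the slope rested on the highest-score sample, WT replicate 13, whose total of counts was also low: without it the slope of *Rspo3* was 0.027 (edgeR adjusted p = 0.391), while that of *Bmp4* became 0.056 (edgeR adjusted p = 0.0251). *Rspo1* rose by 0.20 ± 0.061, 0.23 ± 0.058, 0.15 ± 0.052 and 0.38 ± 0.051 (edgeR adjusted p = 0.00895, 0.000729, 0.0151 and 1.4e-08), from low counts. *Rspo2* entered these fits only when genes with at least 1 count were kept. It then rose in Dok3 by 0.23 (edgeR adjusted p = 1.06e-06), where the highest-score sample held 4.03 CPM and the lowest-score sample no count, and did not pass the test in the other lines. The next highest Dok3 library held 1.33 CPM of *Rspo2*. Within runs of Dok3 sample numbers its slope was 0.218 in the run with the highest-score sample and 0.083 in the other. Over all 160 samples its rho with the score was 0.0657 (permutation p = 0.409).

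The Wnt ligands split into those that rose and *Wnt2b*, which did not. *Wnt4* rose by 0.21 ± 0.075, 0.33 ± 0.057, 0.22 ± 0.059 and 0.25 ± 0.044 (edgeR adjusted p = 0.0236, 6.32e-06, 0.00163 and 2.64e-06). *Wnt5a* rose by 0.084 ± 0.032, 0.095 ± 0.024, 0.076 ± 0.027 and 0.16 ± 0.015 (edgeR adjusted p = 0.0337, 0.00113, 0.0184 and 2.54e-12), and its slope within runs of sample numbers ranged from -0.024 to 0.178. *Wnt2b*, a canonical Wnt ligand of the intestinal stroma, had slopes of -0.036, -0.022, -0.048 and -0.026, of which that in GPSM3 was called (edgeR adjusted p = 0.0385). In the lowest-score samples *Wnt2b* stood at 36.8, 28.7, 21.9 and 18.1 CPM, and in the highest-score samples at 23.8, 27.8, 19.7 and 17.2 CPM. Over all 160 samples *Wnt2b* ran weakly against the score (r = -0.301, rho = -0.305, permutation p = 0.00021 and 0.00012). Its r was -0.374 to -0.261 within lines and -0.272 among the 128 libraries without skin markers. *Bmp4* did not pass the test in any line, with slopes of -0.0078 ± 0.030, 0.024 ± 0.022, 0.043 ± 0.026 and 0.032 ± 0.016 and 95% intervals that together spanned -0.069 to 0.095. Its antagonist *Grem1* moved over a wide range while *Bmp4* did not: r of *Bmp4* with the score was 0.102 (rho = 0.0732, permutation p = 0.205 and 0.36).

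**Figure D3:**
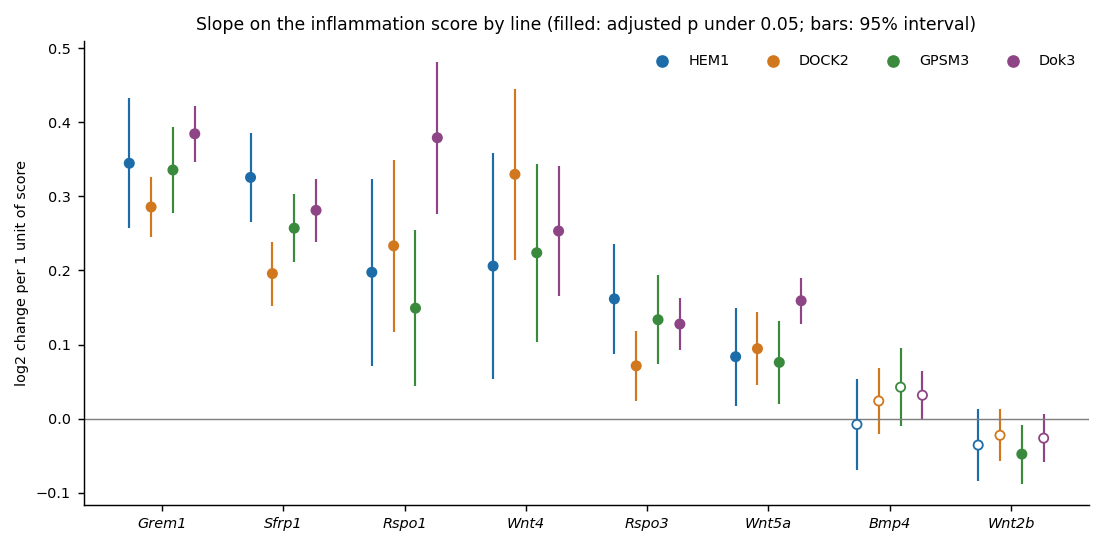
Slope of 8 genes on the inflammation score (log2 change per 1 unit) by line, with 95% intervals, filled where the edgeR adjusted p was under 0.05. *Grem1* lies between 0.29 and 0.38 in all lines and *Bmp4* between -0.0078 and 0.043.

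*Grem1* and *Sfrp1* were the only members called in each line when a score of fibroblast or of epithelial markers was put in the model. With a fibroblast score (mean log2 CPM of *Pdgfra*, *Pdgfrb*, *Col1a1*, *Col1a2*, *Col3a1*, *Dcn*, *Lum* and *Dpt*) as a covariate, *Grem1* had slopes of 0.28, 0.21, 0.26 and 0.31 (edgeR adjusted p = 0.00208, 2.72e-09, 1.01e-06 and 3.29e-08) and *Sfrp1* slopes of 0.19, 0.086, 0.16 and 0.19 (edgeR adjusted p = 0.000256, 0.00221, 1.08e-06 and 0.000837). Under this model these 2 genes alone of the 8 were called in each line, although the slope of *Sfrp1* in DOCK2 was 0.086 against 0.20 without the covariate. *Rspo3* had slopes of 0.066, 0.064, 0.035 and 0.076, none called, and those of *Wnt4* (-0.15, -0.055, -0.0062 and -0.068) and *Wnt5a* (-0.067, -0.044, -0.032 and 0.037) lay near or below 0. With an epithelial score as a covariate, *Grem1* and *Sfrp1* were again called in each line, with slopes of 0.275 to 0.395 and 0.163 to 0.246. Other members were called in some lines under that model: *Rspo3* in DOCK2 (0.066), GPSM3 (0.12) and Dok3 (0.092), *Rspo1* in DOCK2 (0.17) and Dok3 (0.18), *Wnt4* in DOCK2 (0.16) and *Wnt5a* in Dok3 (0.10). With a skin-marker score as a covariate, *Rspo1* and *Rspo3* were called in each line as well as *Grem1* and *Sfrp1*. The slopes in HEM1, DOCK2, GPSM3 and Dok3 were then 0.162, 0.191, 0.119 and 0.291 for *Rspo1* and 0.158, 0.064, 0.136 and 0.125 for *Rspo3*. Over all 63 alternative fits of the 4 lines, *Grem1* was called in 63 (0.21 to 0.63) and *Sfrp1* in 63 (0.086 to 0.40), *Rspo3* in 52 of 63, *Wnt4* in 48 of 63, *Wnt5a* in 44 of 63 and *Rspo1* in 42 of 54, while *Wnt2b* was called in 8 of 63 and *Bmp4* in 3 of 63.

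**Figure D4:**
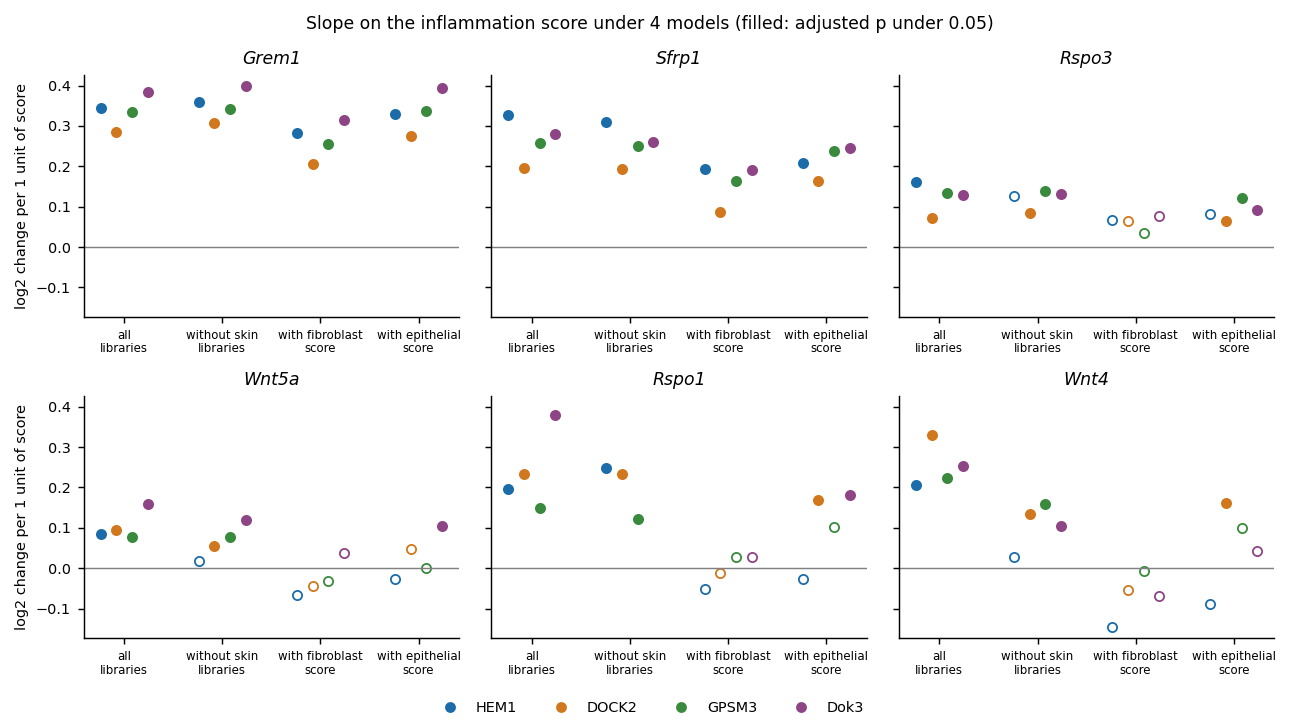
Slope of 6 genes on the inflammation score (log2 change per 1 unit) by line under 4 models, filled where the edgeR adjusted p was under 0.05. *Rspo1* in Dok3 without skin libraries was not tested because it did not pass the filter on low counts, and with the fibroblast score in the model only *Grem1* and *Sfrp1* stay filled, at 0.21 to 0.31 and 0.086 to 0.19.

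*Wnt4* followed skin markers more closely than the other 8 genes, with r = 0.867 and rho = 0.676 against their summed log2 CPM (permutation p = 1e-05 for both). In the 32 libraries with skin markers *Wnt4* ranged from 16.7 to 80.4 CPM (median 39.7), and in the other 128 from 4.21 to 22.8 (median 8.92). Within each line the sets did not overlap: the lowest skin-marker library held 16.7 CPM in HEM1, 19.3 in DOCK2, 28.8 in GPSM3 and 23.1 in Dok3, and the highest other library 12.7, 17.04, 17.02 and 22.8. *Wnt2b* went the other way, with 12.3 to 27.2 CPM (median 16.99) in skin-marker libraries and 17.2 to 40.0 (median 26.1) in the others. *Grem1* had similar medians, 150.2 and 133.1 CPM. Many skin-marker libraries also held striated muscle markers, with up to 8132 summed CPM of 6 such markers (HEM1 HO replicate 3). Against the mean log2 CPM of these muscle markers, r was -0.688 for *Wnt2b*, 0.751 for *Wnt4* and 0.0903 for *Grem1*. The part of each tissue in these values was not tested. Skin markers themselves rose with the score in 0 of 8 tested in HEM1, 7 of 7 in DOCK2, 3 of 4 in GPSM3 and 7 of 7 in Dok3. Skin-marker libraries had the higher median score in each line, 1.64 against 1.06 in HEM1, 1.21 against 0.598 in DOCK2, 1.33 against -0.335 in GPSM3 and 4.72 against 0.309 in Dok3. Without them the slope of *Wnt4* on the score was 0.027 in HEM1 (edgeR adjusted p = 0.651), 0.14 in DOCK2 (0.00159), 0.16 in GPSM3 (5.88e-06) and 0.11 in Dok3 (0.00144), and in HEM1 the slopes of *Wnt5a* (0.018, edgeR adjusted p = 0.82) and *Rspo3* (0.13, edgeR adjusted p = 0.0667) also no longer passed the test. *Grem1* kept 0.36, 0.31, 0.34 and 0.40 and *Sfrp1* 0.31, 0.19, 0.25 and 0.26, all called. Most HEM1 skin-marker libraries came from the same run of sample numbers, so skin markers and that run cannot be told apart in HEM1.

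**Figure D5:**
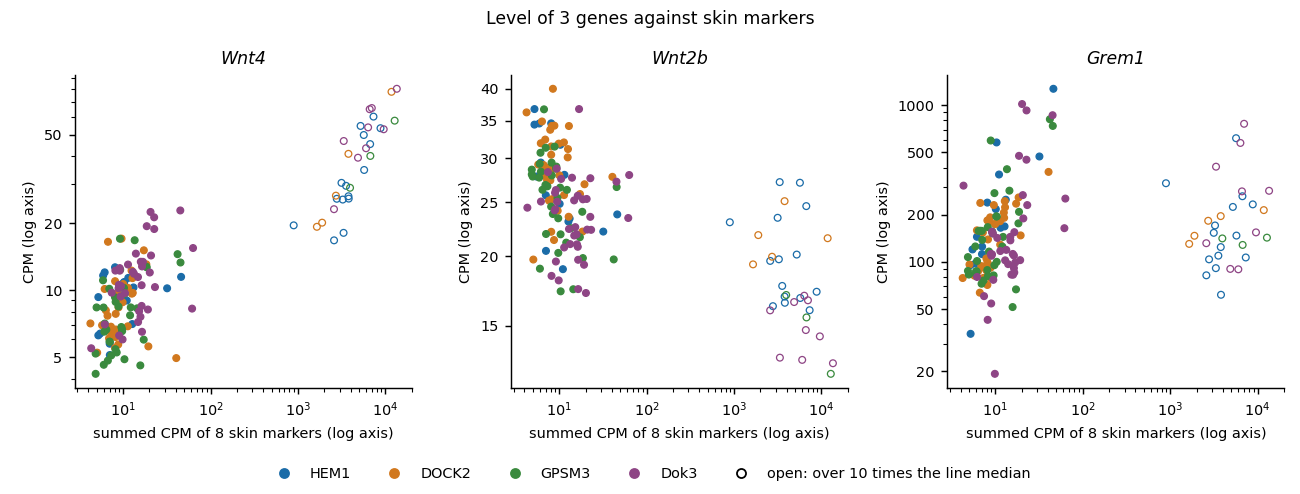
Level of *Wnt4*, *Wnt2b* and *Grem1* (CPM, log axis) against the summed CPM of 8 skin markers (log axis) in 160 samples, coloured by line, with the 32 skin-marker libraries open. *Wnt4* lies above 16.7 CPM in all 32 and *Wnt2b* below 27.2, while *Grem1* spans 61.7 to 761.6 CPM.

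Whether the rise with inflammation depended on genotype was tested as an interaction. It was called for 0%, 0%, 0% and 0.00568% of all genes in HEM1, DOCK2, GPSM3 and Dok3 and for 0 of the 32 tests on the 9 genes (lowest edgeR adjusted p = 0.1937), with 4 at an unadjusted p under 0.05, against 3066, 934, 558 and 594 of all genes, and limma-voom called 0 genes in each line. These were *Wnt4* (0.38 ± 0.14, HO slope minus WT slope), *Grem1* (-0.20 ± 0.090) and *Wnt2b* (-0.12 ± 0.045) in HEM1, and *Rspo3* (-0.14 ± 0.043) in DOCK2. Without skin-marker libraries the value of *Wnt4* in HEM1 turned to -0.042 (edgeR adjusted p = 0.927), with -0.13 for *Grem1* and -0.083 for *Wnt2b*. For *Rspo3* the WT slope includes WT replicate 13, the highest-score library of that line.

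The genes also varied together. The strongest of the 36 pairs, with line means removed, was *Grem1* with *Sfrp1* (r = 0.81, rho = 0.744, 0.761 to 0.901 within lines), followed by *Rspo3* with *Grem1* (r = 0.729, rho = 0.578, 0.458 to 0.802 within lines), each with a permutation p of 1e-05 (2.25e-05 adjusted over the 36 pairs). *Wnt5a* was correlated with *Sfrp1* (r = 0.703, rho = 0.613), *Rspo1* (r = 0.702, rho = 0.671) and *Bmp4* (r = 0.585, rho = 0.558), also at a permutation p of 1e-05. The last of these was 0.705 among the 128 libraries without skin markers. *Wnt2b* and *Wnt4* ran in opposite directions over all samples (r = -0.536, rho = -0.379, permutation p = 1e-05) but not among the 128 libraries without skin markers (r = -0.0384). *Wnt2b* followed *Bmp4* instead (r = 0.336, rho = 0.358, permutation p = 4e-05 and 1e-05, and r = 0.506 among the 128).

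The genes whose log2 levels were most like each member over the 160 samples, by Pearson r, are given as a description, since all points share their libraries. Closest to *Grem1* were *Tgm2*, a transglutaminase that crosslinks matrix proteins (r = 0.919), *Vcan*, the matrix proteoglycan versican (0.91), and *Gm49339* (0.907). Closest to *Sfrp1* were *Igfbp4* (0.924), *Lgi2* (0.9) and the stromal chemokine gene *Cxcl12* (0.894). *Rspo3* was closest to *Zeb1*, a transcription factor of mesenchymal cells (0.783, and 0.873 without skin-marker libraries), *Hdac9* (0.779) and *Kcnj8* (0.774). *Bmp4* was closest to the fibroblast transcription factor gene *Tcf21* (0.702), the hedgehog effector *Gli2* (0.697) and *Hic1* (0.682). *Wnt5a* was closest to *Lama4* (0.816), *Nrp1* (0.814) and *Ppic* (0.81), and *Rspo1* to *Aebp1* (0.81), the procollagen peptidase gene *Adamts2* (0.807) and *Chl1* (0.805). For *Wnt4* the closest were *Ajuba* (0.91), *Rarg* (0.895) and *Fabp5* (0.894), and r with *Ajuba* was 0.63 among the 128 libraries without skin markers, where *Hic1* was the closest (0.739). For *Rspo1* the closest gene among those 128 was *Wt1*, a mesothelial marker (0.775). *Wnt2b* had *Adam23* (0.701), *Lbh* (0.699) and *Trim46* (0.697), all at most 0.532 without skin-marker libraries, and *Rspo2* had *Ank2* (0.599), *Dpp6* and *Sphkap* (both 0.586).

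Where other secreted Wnt antagonists were called, they moved in the direction of *Sfrp1*. Of 8 tested, 6 rose with the score in HEM1, 4 in DOCK2, 4 in GPSM3 and 7 in Dok3, and 0 fell in any line. Over all genes 23.7%, 28.4%, 28.4% and 33.3% rose in these lines, and 25%, 26.8%, 26.1% and 30.5% fell. *Sfrp4* rose by 0.33, 0.29, 0.21 and 0.36 and *Sfrp2* by 0.17, 0.16, 0.18 and 0.18 (log2 per unit of score), and *Frzb* rose in HEM1 (0.18) and Dok3 (0.20). Of the other BMP antagonists, 5 of 9 rose and 0 fell in HEM1, 5 rose and 1 fell in DOCK2, 4 rose and 2 fell in GPSM3, and 7 rose and 0 fell in Dok3. Their median slope was 0.078, 0.030, 0.0029 and 0.080 in the same order. Neither list was tested as a set. *Chrdl2*, a chordin-like BMP antagonist, rose by 0.52, 0.47, 0.49 and 0.49, *Fst*, which binds activin, by 0.40, 0.44, 0.39 and 0.44, *Bmper* by 0.24, 0.22, 0.29 and 0.34 and *Chrd* by 0.16, 0.13, 0.19 and 0.21. The slopes of *Chrdl2* and *Fst* were in each line above that of *Grem1*.

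Among BMP ligands other than *Bmp4*, *Bmp2*, made largely by epithelium, fell by 0.17, 0.16, 0.19 and 0.23 and *Bmp3* fell by 0.11, 0.19, 0.15 and 0.10 in HEM1, DOCK2, GPSM3 and Dok3, while *Bmp7* rose by 0.18, 0.17, 0.15 and 0.20. Of 7 such ligands, 2 rose and 3 fell in HEM1, GPSM3 and Dok3, and 3 rose and 2 fell in DOCK2, beside the 23.7% to 33.3% of all genes that rose and the 25% to 30.5% that fell. Among 14 BMP receptors, SMADs and targets, 3 rose and 5 fell in HEM1, 4 and 6 in DOCK2, 1 and 6 in GPSM3, and 5 and 4 in Dok3, with median slopes of 0.0030, -0.0094, -0.024 and -0.011 near the median of all genes. Counts this small beside those shares are no result about either list. The inhibitory SMAD gene *Smad7* fell in all lines, by 0.10, 0.041, 0.11 and 0.12. *Id1*, a direct BMP target named here after its values were seen, had slopes of 0.0036, 0.080, 0.014 and -0.044, called in DOCK2 alone.

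On the receiving side, genes of Wnt receptors and Wnt targets moved in both directions in these bulk samples. Of the Wnt and R-spondin receptors and their regulators, 8 of 19 fell and 2 rose in HEM1, 9 of 17 fell and 3 rose in DOCK2, 8 of 17 fell and 2 rose in GPSM3, and 7 of 17 fell and 5 rose in Dok3. The median slope of this list was -0.050, -0.061, -0.053 and -0.0018, against 0.0010, -0.00021, 0.00055 and 0.0015 over all genes. Over all genes 23.7% to 33.3% rose and 25% to 30.5% fell, and the list was not tested as a set. The R-spondin receptor genes *Lgr5*, a marker of crypt stem cells named, like *Znrf3* in the next sentence, after its values were seen, and *Lgr4* fell in all lines, by 0.31, 0.33, 0.26 and 0.21 and by 0.13, 0.061, 0.053 and 0.13. The ubiquitin ligase genes *Rnf43* (-0.17, -0.083, -0.12 and -0.15) and *Znrf3* (-0.079, -0.10, -0.098 and -0.091), which remove Frizzled receptors and are themselves Wnt targets, and the coreceptor gene *Lrp6* (-0.050, -0.068, -0.068 and -0.066) also fell in each line. Of 13 epithelial Wnt targets, 2 rose and 4 fell in HEM1, 4 and 5 in DOCK2, 3 and 1 in GPSM3, and 3 and 5 in Dok3, with median slopes of 2.53e-05, -0.017, -0.021 and 0.0090, so that the list as a whole did not move in one direction. *Axin2* fell by 0.10, 0.12 and 0.16 and *Ascl2* fell by 0.28, 0.24 and 0.27 in HEM1, DOCK2 and Dok3, and in GPSM3 they had slopes of -0.085 (edgeR adjusted p = 0.0732) and -0.10 (0.209). *Cd44*, which is expressed in leukocytes as well as in crypts, rose by 0.28, 0.33, 0.26 and 0.29. Epithelial markers fell with the score in 6 of 8 in HEM1, 2 of 8 in DOCK2, 3 of 8 in GPSM3 and 6 of 8 in Dok3, and 2 of 8 rose in DOCK2. Their part in the slopes of *Axin2* and *Ascl2* was not tested. Among other Wnt ligands and secretion factors, 2 of 13 rose and 1 fell in HEM1, 3 of 9 rose and 1 fell in DOCK2, 1 of 9 rose and 2 fell in GPSM3, and 5 of 10 rose and 1 fell in Dok3. Over all genes 48.7%, 55.2%, 54.5% and 63.9% were called in either direction in these lines. Counts this small beside those shares are no result about this list. *Wnt8b* fell in all lines, by 0.51, 0.28, 0.41 and 0.36, and *Wnt2* rose in DOCK2 (0.24), GPSM3 (0.19) and Dok3 (0.16). In these lists 0 genes differed between HO and WT in any line.

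Inflammation genes that fibroblasts can express rose with the score beside *Grem1*, with 12 of 12 in HEM1 and 11 of 11 in each of the other lines (among them *Il6*, *Il11*, *Mmp3*, *Timp1* and *Il33*). Because they were listed as inflammation genes, their rise with an inflammation score is no separate result. Of the other cell types, all 4 macrophage markers rose in each line, and endothelial markers rose in 4, 3, 3 and 4 of 4. Mesothelial markers rose in 1 of 1, 2 of 3, 2 of 3 and 2 of 2 tested, and enteric glia markers in 1 of 4 in each line, with 1 falling. Smooth muscle markers fell in 3 of 8 in HEM1, 1 in DOCK2, 8 in GPSM3 and 1 in Dok3, and 0 rose. Over all genes 23.7% to 33.3% rose and 25% to 30.5% fell, and none of these marker lists was tested as a set. *Bmp4* (r = 0.349) was less closely related to the fibroblast score over the 160 samples than *Sfrp1* (0.835), *Wnt5a* (0.799), *Rspo1* (0.788), *Grem1* (0.757), *Wnt4* (0.754) and *Rspo3* (0.598), whereas *Wnt2b* ran against it (-0.312) and *Rspo2* was related to it at 0.339. The corresponding rho values were 0.32, 0.785, 0.73, 0.741, 0.718, 0.713, 0.506, -0.229 and 0.173, and the largest of these permutation p-values was 0.0298. The negative relation of *Wnt2b* was absent among the 128 libraries without skin markers, where its r with the fibroblast score was 0.0353.

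Females and males could be compared in HEM1 and DOCK2. In DOCK2, *Wnt2b* was lower in males, at 19.3, 26.4 and 34.9 CPM (lowest, median, highest, 22 males) against 21.5, 31.3 and 40.0 in 20 females, a difference of -0.25 ± 0.069 (male minus female, log2 ± SE, edgeR adjusted p = 0.0162). *Rspo3* was higher in males, at 7.50, 13.6 and 29.5 CPM against 7.60, 10.5 and 14.4, a difference of 0.40 ± 0.11 (edgeR adjusted p = 0.0124). The ranges overlapped for both genes. In DOCK2, 9.60% of all genes were called, and 2 of the 9 here. Males of that line had a median score of 1.15 and females of -0.283, and with the score as a covariate the differences were -0.23 (edgeR adjusted p = 0.0333) and 0.31 (edgeR adjusted p = 0.0429). Males and females of DOCK2 carried largely separate ranges of sample numbers, so that sex and any processing that followed those numbers cannot be told apart. In HEM1, where 0.255% of all genes were called, 0 of the 9 were, with 2 at an unadjusted p under 0.05: *Wnt5a* (-0.52 ± 0.19, edgeR adjusted p = 0.201) and *Rspo1* (-0.88 ± 0.38, edgeR adjusted p = 0.273). Most HEM1 females and most HEM1 skin-marker libraries carried numbers of the same run. Sex, skin markers and any processing that followed those numbers therefore cannot be told apart in HEM1 either. Skin-marker libraries were 9 of the 12 HEM1 females and 6 of the 19 males, with a median summed skin-marker level of 3291 CPM in females and 12.7 in males. Without them, which leaves 3 females, the difference was -0.093 for *Rspo1* and -0.36 for *Wnt5a* (edgeR adjusted p = 0.986 and 0.845).

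Between the WT samples of the 4 lines, compared in a joint F test over the lines, 41.8% of all genes differed and 6 of the 9 did: *Sfrp1* (edgeR adjusted p = 0.00129), *Wnt4* (0.00508), *Wnt5a* (0.0162), *Rspo1* (0.0165), *Wnt2b* (0.0244) and *Grem1* (0.0266). Single pairs of lines were not tested, and the fitted differences from HEM1 (log2) are given as a description. For *Sfrp1* they were -0.72 in DOCK2, -0.78 in GPSM3 and 0.19 in Dok3, for *Grem1* -0.85, -1.12 and -0.43, and for *Wnt4* -0.74, -0.82 and 0.20. Marker genes differed between lines as well, with 8 of 8 fibroblast markers, 11 of 12 stromal inflammation genes, 5 of 9 genes of the inflammation score and 4 of 4 endothelial markers called, and their part in the differences of the members was not tested. Without the skin-marker libraries 3 of these remained called, *Sfrp1* (edgeR adjusted p = 0.00504), *Grem1* (0.0161) and *Wnt4* (0.0287), and among male WT samples 2 did, *Sfrp1* (0.0143) and *Wnt4* (0.048). *Bmp4*, *Rspo2* and *Rspo3* did not pass the test between lines (edgeR adjusted p = 0.11, 0.481 and 0.062).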

How the data were processed

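Total RNA of mouse distal colon was sequenced as single-end reads after ribosomal RNA depletion with a stranded kit. The authors aligned reads to mm10 with STAR and deposited raw counts per Ensembl gene made with featureCounts, without versions or strand setting in the sources used here. Symbols and exon lengths came from the GENCODE annotation of GRCm38 and covered 37607 of 39179 genes (96.0%). Samples of the same group differed by more than counting noise in all 1569 pairs (smallest mean chi-square per gene 3.74).

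Counts were tested per line with edgeR 4.0.16 (quasi-likelihood, TMM, filterByExpr; R 4.3.3). Models for HEM1 and DOCK2 included sex. P-values received Benjamini-Hochberg adjustment over all genes tested, with a threshold of 0.05. The same test was used for the slope on the score, its interaction with genotype, sex, line and the genotype effect across lines. CPM was TMM-normalised over all 160 samples, and log2 CPM used a prior count of 2. Correlations used 100000 permutations within lines (scipy 1.17.1, 45 relations with scores and 36 pairs). DESeq2 1.42.0, limma-voom (limma 3.58.1) and other filters, covariates and subsets of libraries were alternatives. The fits were tested on simulated counts. Replicates are samples labelled separately, and p-values measure the spread between them. Genes named are the 9, the 3 most like each, the 2 with the smallest adjusted p among those called per pathway list and comparison (a selection of these is printed), the targeted genes and the genes of marker and inflammation lists. The members and lists were chosen with earlier results of these data known.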

Additional observations from a re-analysis of the deposited data

How the results depend on the processing

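Over 140 alternative fits, 1119 values of the 9 genes were compared with those reported: 1042 stayed on their side of the threshold (65 of them, uncalled in both fits, with another sign), 57 of those called were no longer called, 4 became called and 16 changed sign and were no longer called. The knockout comparisons called none of the members tested in any alternative. *Rspo2* entered them only where genes with at least 1 count were kept. Of the 6 genes rising with the score (7 called in GPSM3), 2 stayed called with the fibroblast score in each line, 2 in HEM1 and 3 in GPSM3 with the epithelial score, 2 in HEM1 and 3 in DOCK2 and GPSM3 on a score of epithelial inflammation genes, 3 in HEM1 without skin-marker libraries, 3 among males in HEM1 and DOCK2, and 3 among WT samples in HEM1 and GPSM3. *Grem1* and *Sfrp1* were among them each time. The 6 genes differing between lines became 3 without skin-marker libraries and 2 among males.

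Signs changed as follows. With the fibroblast score the slopes were -0.15 (*Wnt4*), -0.067 (*Wnt5a*) and -0.050 (*Rspo1*) in HEM1, -0.055, -0.044 and -0.012 for the same genes in DOCK2, -0.0062 (*Wnt4*) and -0.032 (*Wnt5a*) in GPSM3 and -0.068 (*Wnt4*) in Dok3. With the epithelial score they were -0.090 (*Wnt4*), -0.026 (*Wnt5a*) and -0.026 (*Rspo1*) in HEM1. On the epithelial inflammation score *Wnt4* had -0.22 in HEM1 and -0.00039 in Dok3 and *Rspo1* -0.0072 in HEM1, and among WT samples *Wnt4* had -0.016 in HEM1. The cause was not tested.

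Counts over all genes moved too. Genes differing by knockout numbered 0 in HEM1 (0 to 57 over the alternatives), 6 in DOCK2 (0 to 152), 1 in GPSM3 (0 to 32) and 0 in Dok3 (0 to 15), and genes with a slope 8739 (4722 to 10963), 9741 (5905 to 10775), 9567 (6434 to 11021) and 11246 (5334 to 13432). The interaction gave 0 (0 to 0), 0 (0 to 27), 0 (0 to 5) and 1 (0 to 2), sex 50 (9 to 55) in HEM1 and 1766 (1469 to 3229) in DOCK2, line 7963 (3619 to 8368) and genotype across lines 137 (1 to 390). Skin markers and the score as covariates for the slope and sex comparisons were chosen after seeing the data. No paired analysis was possible because the labels give no replicate numbers and those used here follow accession order. A split at the largest gap in the score was not run, as no gap was wide enough, and *Rspo2* was too low for most fits.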
